A study of Homo sapiens with 4 samples.

Results

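The miRNAs hsa-miR-424, hsa-miR-503, hsa-miR-542-5p, hsa-miR-542-3p, hsa-miR-450a, hsa-miR-450b-5p and hsa-miR-450b-3p are processed from 6 hairpins that lie next to each other on the X chromosome. They were selected by name and make up 7 of the 1733 miRNAs counted in each library. Of these 7 members, 6 had counts in every library, 5 had at least 10 counts in every library, and hsa-miR-450b-3p was at 0 in all 4. Small RNA was sequenced from 4 cell populations, with 1 library each. Hep3B and Huh7 are human hepatoma lines (HCC cells), Hep3B-C is the stem-like population cultured from the first and Huh7-C that from the second (HCSCs), and the labels name no treatment or time point. Because no condition had a replicate, every p-value and interval given here compares 2 libraries and covers counting error only.

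MiRNAs of a cluster like this one can be cut from a shared primary transcript, and the mature strands are then free to differ in level through processing and turnover. The seed, bases 2 to 8 of the mature strand, is the main part that pairs with target mRNAs. MiR-424 and miR-503 belong to the extended miR-15/16 family, whose known targets include cyclins and other drivers of the cell cycle, and miR-542-3p is known to target the mRNA of survivin, an inhibitor of apoptosis.

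In the annotation of GRCh38 the 6 hairpins lie on the minus strand of chrX:134540185-134546711, a stretch of 6527 bases. In the order of transcription, MIR424 (chrX:134546614-134546711) lies partly within an exon of the non-coding host gene MIR503HG in GENCODE release 29, and MIR503 (chrX:134546328-134546398) lies within an intron of it. MIR542 (chrX:134541341-134541437), MIR450A2 (chrX:134540508-134540607), MIR450A1 (chrX:134540341-134540431) and MIR450B (chrX:134540185-134540262) lie outside that gene. The gap of 4890 bases between MIR503 and MIR542 separates the MIR424-MIR503 block from the block of MIR542 and the miR-450 hairpins, and the other gaps are 76 to 733 bases. The count tables hold no positions and rest on an older build, so these coordinates come from the annotation alone.

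The mature sequences of 6 members are given here because the comparison of their seeds turns on them. They are from RefSeq (GRCh38.p14), written 5′ to 3′, and the capitals mark the seed.
hsa-miR-424: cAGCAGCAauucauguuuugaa
hsa-miR-503: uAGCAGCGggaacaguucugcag
hsa-miR-542-5p: uCGGGGAUcaucaugucacgaga
hsa-miR-450a: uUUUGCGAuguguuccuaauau
hsa-miR-450b-5p: uUUUGCAAuauguuccugaaua
hsa-miR-450b-3p: uUGGGAUCauuuugcauccaua

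No 2 of these members had the same seed. The seed of miR-424 was shared with 6 other mature miRNAs of the 2370 in the RefSeq table, among them miR-15a, miR-15b, miR-16, miR-195 and miR-497. The seeds of miR-503, miR-542-5p, miR-450a and miR-450b-5p were found in no other mature miRNA of that table, and that of miR-450b-3p was found in miR-769-3p. MiR-450a and miR-450b-5p, the most similar pair among the printed members of equal length, differed at 6 of 22 positions, counted from 1 at the 5′ end: G7A, G10A, A18G, U20A, A21U and U22A, with the base of miR-450a first. Only the first of these lies in the seed. MIR450A1 and MIR450A2 give the same mature miR-450a, so its counts cannot be assigned to either hairpin.

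The libraries held 1739278 (Hep3B) and 5430195 (Hep3B-C), and 5741567 (Huh7) and 4045199 (Huh7-C) miRNA counts, and these were 10.4%, 35.2%, 54.1% and 37.8% of their total reads. Levels are given in TPM, here counts per 1000000 total reads. On this scale the median miRNA was shifted by 1.42 (log2) in Hep3B-C against Hep3B, by -0.66 in Huh7-C against Huh7, by 1.59 in Huh7 against Hep3B and by -0.82 in Huh7-C against Hep3B-C, over the miRNAs that reached 10 counts in either library. A member can therefore rise on this scale and still rise less than most miRNAs. Summed TPM of 4 liver miRNAs were lowest in Hep3B (10997) and highest in Huh7 (115662), with the miR-122* strand at 0 in Hep3B, and 3 members of the miR-302 family and miR-367, markers of pluripotent cells, were at 0 in all libraries. Outside that list, and looked up after values were seen, miR-302a*, miR-371-5p, miR-372 and miR-373 had 0 counts in the Hep3B libraries, at most 2 in Huh7 and 3 to 7 in Huh7-C. Counts of 4 fibroblast and smooth muscle markers differed between the lines, with 428 in Hep3B and 1711 in Hep3B-C against 51 in Huh7 and 19 in Huh7-C, and miR-143 alone gave 427, 1706, 33 and 13 of them. MiR-199a-5p of the same list ran the other way, with 1, 0, 17 and 4 counts, miR-214 was at 0 in both Hep3B libraries, and miR-145 had 5 counts in Hep3B-C and 0 elsewhere.

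**Figure D1:**
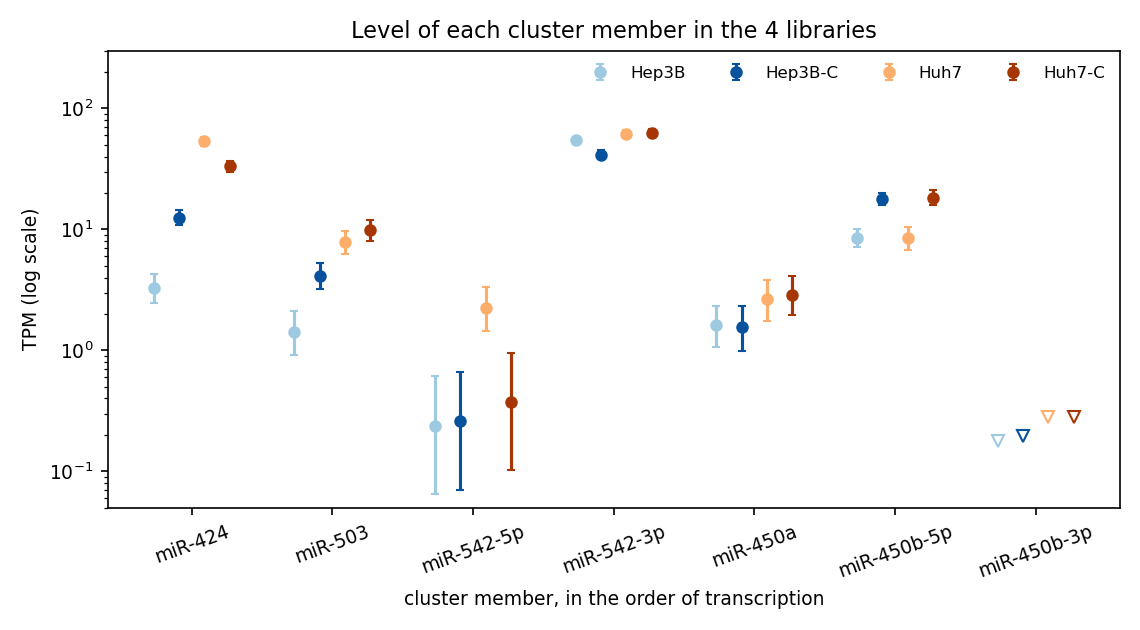
TPM (log scale) of each of the 7 members in the 4 libraries, 1 library per condition. Points are the levels, bars are 95% Poisson intervals, and open triangles mark the level of 3 counts for miR-450b-3p, which had no counts. MiR-542-3p lay between 41.6 and 62.3 TPM in all libraries, while miR-424 was at 3.28 TPM in Hep3B and at 53.7 TPM in Huh7.

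The summed level of the cluster was 69.7 TPM in Hep3B (1169 counts) and 78.0 TPM in Hep3B-C (1204 counts), against 136.5 TPM in Huh7 (1450 counts) and 127.0 TPM in Huh7-C (1361 counts). The HCSC libraries thus lay close to the HCC library of the same line, and both Huh7 libraries lay above both Hep3B libraries on this scale. For Huh7 against Hep3B the log2 fold-change of 0.97 became -1.41, -0.49 and -0.48 with total miRNA counts, TMM and DESeq2 library sizes. The log2 fold-change of the sum was 0.16 (95% interval 0.05 to 0.28) in Hep3B-C against Hep3B and -0.10 (-0.21 to 0.004) in Huh7-C against Huh7. Relative to the median miRNA, the sum changed by -1.26 for the Hep3B pair and by 0.56 for the Huh7 pair. When library sizes were total miRNA counts, the sums changed by -1.60 and 0.41, so both directions depended on the library size.

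MiR-424 varied most with the line. It had 55 counts (3.28 TPM) in Hep3B and 193 (12.5 TPM) in Hep3B-C, against 570 (53.7 TPM) in Huh7 and 357 (33.3 TPM) in Huh7-C. The Hep3B library was lowest and the Huh7 library highest, and the HCSC libraries lay between them. The endothelial markers miR-126 and miR-126* had the same order (summed level 52.2, 103.3, 208.0 and 158.9 TPM). So did the 4 liver miRNAs (10997, 35490, 115662 and 59629 TPM). The share of miRNA counts in the total reads had it as well (10.4%, 35.2%, 54.1% and 37.8%). The 4 blood markers had 7, 0, 23 and 3 counts. The part of other cell types in the values of the members was not tested. MiR-424 had a log2 fold-change of 1.93 (1.49 to 2.39, adjusted p = 2.85e-21, exact Poisson test) in Hep3B-C against Hep3B, which was called. In Huh7-C against Huh7 it fell by 0.69 on the log2 scale (-0.88 to -0.49, adjusted p = 4.92e-12, exact Poisson test), which is short of the 2-fold change that a call required. Relative to the median miRNA these were differences of 0.51 and -0.02, and with total miRNA counts as library sizes they were 0.17 and -0.17.

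MiR-503, whose seed has 6 of its 7 bases in common with that of miR-424, had 24 counts (1.43 TPM) in Hep3B and 64 (4.14 TPM) in Hep3B-C, against 83 (7.81 TPM) in Huh7 and 105 (9.80 TPM) in Huh7-C. It was called higher in Hep3B-C at a log2 fold-change of 1.54 (0.84 to 2.28, adjusted p = 7.95e-06, exact Poisson test), which became -0.23 when library sizes were total miRNA counts. In Huh7-C the log2 fold-change was 0.33 (-0.10 to 0.76, adjusted p = 0.239), and the interval included 0. The order of the 4 libraries differed from that of miR-424 in that Huh7-C and not Huh7 was highest, although the interval of that difference included 0.

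MiR-542-3p was the most abundant member in all 4 libraries. It had 916 counts (54.6 TPM) in Hep3B and 642 (41.6 TPM) in Hep3B-C, against 655 (61.7 TPM) in Huh7 and 668 (62.3 TPM) in Huh7-C. The 3 other libraries lay within 54.6 to 62.3 TPM and Hep3B-C was the lowest. The log2 fold-change in Hep3B-C was -0.39 (-0.54 to -0.25, adjusted p = 3.52e-07, exact Poisson test), which was not called, and with total miRNA counts as library sizes it was -2.16 and was called. In Huh7-C it was 0.02 (-0.14 to 0.17, adjusted p = 0.912). MiR-542-5p, the other strand of the hairpin, had 4, 4, 24 and 4 counts in the same order of libraries (0.238, 0.259, 2.26 and 0.373 TPM). Huh7 stood above the other libraries, and miR-542-5p was called lower in Huh7-C at a log2 fold-change of -2.60 (-4.58 to -1.06, adjusted p = 3.59e-04, exact Poisson test) and rests on 24 and 4 counts.

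MiR-450b-5p was the only member called in the same direction in both pairs with total reads as library sizes, a call that Hep3B-C lost with a pseudocount of 1 TPM and both pairs lost with an assumed coefficient of variation of 0.2. It had 143 counts (8.52 TPM) in Hep3B and 277 (17.9 TPM) in Hep3B-C, against 90 (8.47 TPM) in Huh7 and 196 (18.3 TPM) in Huh7-C. On the scale of total reads the HCC libraries differed by -0.01 (-0.41 to 0.38) and the HCSC libraries by 0.03 (-0.24 to 0.30) in log2 units. The log2 fold-change was 1.07 (0.78 to 1.38, adjusted p = 4.43e-13) in Hep3B-C and 1.11 (0.74 to 1.49, adjusted p = 2.04e-09) in Huh7-C by the exact Poisson test, and both were called. With total miRNA counts, TMM and DESeq2 library sizes the value in Huh7-C was 1.63, 1.43 and 1.68 and was called each time. In Hep3B-C it was -0.69, -0.34 and -0.11 and was not called. It therefore changed by -0.35 (log2) relative to the median miRNA in Hep3B-C and by 1.78 relative to it in Huh7-C.

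MiR-450a had 27 counts (1.61 TPM) in Hep3B and 24 (1.55 TPM) in Hep3B-C, against 28 (2.64 TPM) in Huh7 and 31 (2.89 TPM) in Huh7-C. Its log2 fold-change was -0.05 (-0.91 to 0.80) in Hep3B-C and 0.13 (-0.65 to 0.93) in Huh7-C, and neither was called. A change within these intervals was not detectable at this depth. With total miRNA counts as library sizes it was called lower in Hep3B-C, at -1.81. MiR-450b-3p had no counts, and 3 counts would correspond to 0.179 to 0.282 TPM.

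In Hep3B-C, 3 of the 6 members tested were called higher (miR-424, miR-503 and miR-450b-5p) and 0 lower, beside 34.1% and 2.52% of all 834 miRNAs tested. In Huh7-C, 1 of 6 was called higher (miR-450b-5p) and 1 lower (miR-542-5p), beside 3.11% and 17.1% of 772. With any of the other 3 library sizes, 0 members were called higher and 2 lower in Hep3B-C, namely miR-542-3p and miR-450a. With total miRNA counts, TMM and DESeq2 sizes, 5.64%, 8.51% and 11.5% of all 834 miRNAs were called higher there and 13.4%, 9.11% and 7.07% lower. When both lines were fitted together with the parent line as a block (edgeR quasi-likelihood test with TMM library sizes and 1 residual degree of freedom), 0 of 443 miRNAs (0%) were called, 31 had an unadjusted p under 0.05, and none of the 5 members tested was among these. Their adjusted p ranged from 0.689 to 0.906. DESeq2 called 4 miRNAs higher and 1 lower in the same design, and none was a member.

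**Figure D2:**
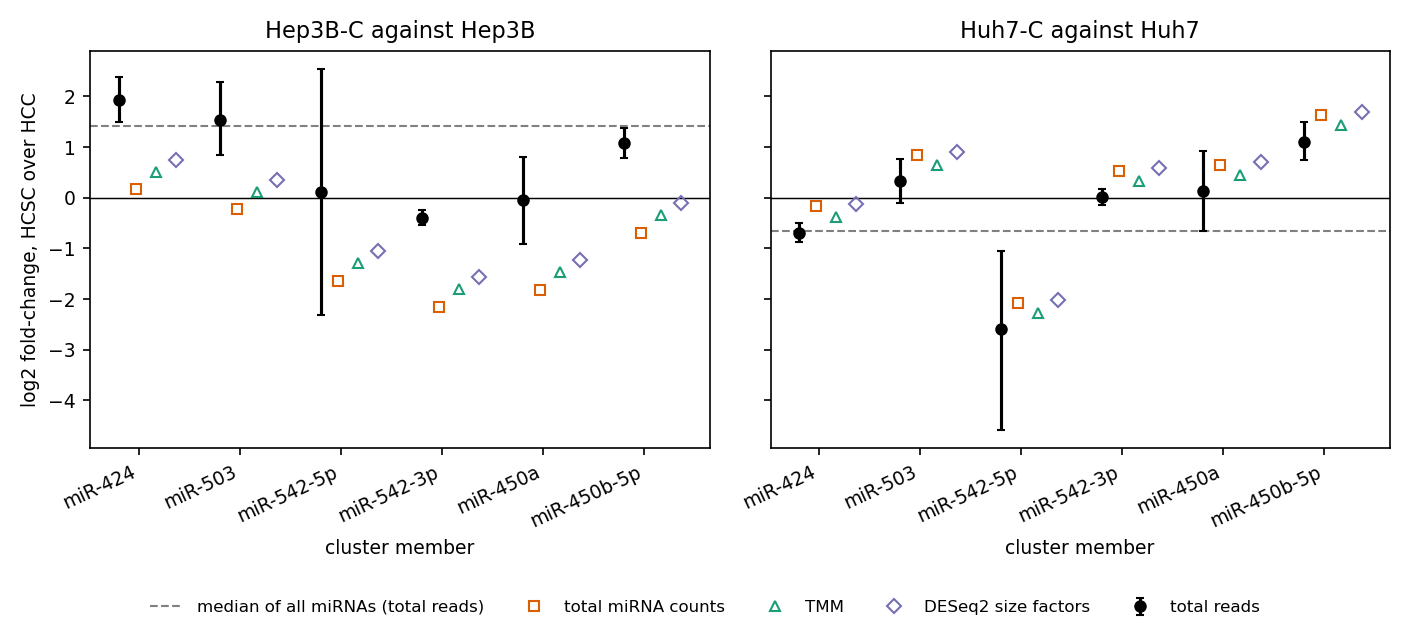
Log2 fold-change of the 6 members with counts, HCSC over HCC library, in Hep3B-C against Hep3B (left) and Huh7-C against Huh7 (right). Filled points with 95% counting intervals use total reads as library sizes, open symbols use the 3 other library sizes, and the dashed line is the median of all miRNAs that reached 10 counts in either library. All open symbols lie below the filled points in the left panel, where miR-424 goes from 1.93 to 0.17 with total miRNA counts, and above them in the right panel, where miR-450b-5p goes from 1.11 to 1.63.

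Ratios of 2 members within a library do not depend on the library size, so the members were also compared with each other in this way. The share of the cluster counts taken by miR-542-3p was 78.4% in Hep3B (75.9 to 80.7%, exact binomial interval) and 53.3% in Hep3B-C (50.5 to 56.2%), against 45.2% in Huh7 (42.6 to 47.8%) and 49.1% in Huh7-C (46.4 to 51.8%). The share of miR-424 was 4.70%, 16.0%, 39.3% and 26.2% in the same order, and that of miR-450b-5p was 12.2%, 23.0%, 6.21% and 14.4%. In Hep3B the cluster was mostly miR-542-3p, whereas in Huh7 miR-424 and miR-542-3p were near each other. The shares of miR-503 were 2.05 to 7.71%, those of miR-450a were 1.93 to 2.31% and those of miR-542-5p were 0.294 to 1.66%.

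**Figure D3:**
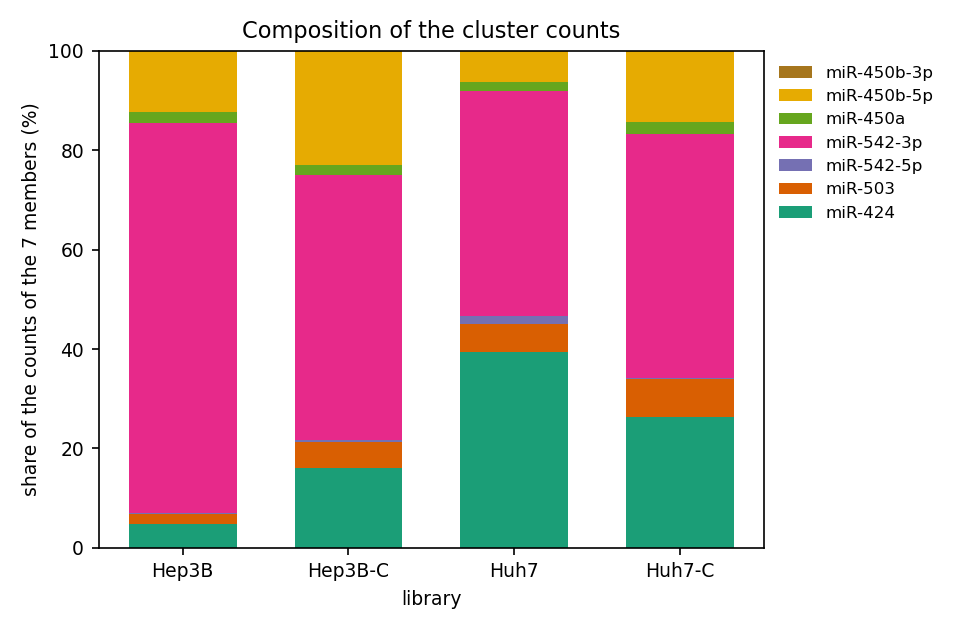
Share (%) of the summed counts of the 7 members taken by each member, stacked to 100% for each of the 4 libraries. The share of miR-424 is 4.70% in Hep3B and 39.3% in Huh7, and that of miR-450b-5p is larger in each HCSC library than in the HCC library of its line.

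MiR-450b-5p gained on miR-542-3p in both HCSC libraries. In Hep3B there were 0.156 counts of miR-450b-5p for each count of miR-542-3p, and in Hep3B-C 0.431, a 2.76-fold rise (log2 1.47, 95% interval 1.13 to 1.80). In Huh7 there were 0.137 and in Huh7-C 0.293, a 2.14-fold rise (log2 1.09, 0.69 to 1.504). The HCC libraries lay near each other, and both HCSC libraries lay above both of them. The ratio of miR-450b-5p to miR-450a, its closest relative in sequence, rose by 1.12 (0.22 to 2.03) and 0.98 (0.09 to 1.85) on the log2 scale. Of 264 other miRNAs with at least 10 counts in every library, 13 (4.92%), miR-450b-5p included, rose at least 2-fold relative to miR-542-3p in both pairs.

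MiR-542-3p and miR-450a, in contrast, had a ratio whose change had an interval that included 0 in each pair. There were 33.9, 26.8, 23.4 and 21.5 counts of miR-542-3p per count of miR-450a in Hep3B, then Hep3B-C, Huh7 and Huh7-C. The log2 change was -0.34 (-1.21 to 0.53) in Hep3B-C and -0.12 (-0.93 to 0.68) in Huh7-C. The intervals are wide because miR-450a had at most 31 counts, and they do not show that the ratio stayed the same.

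MiR-424 moved against miR-542-3p, miR-450a and miR-450b-5p in opposite directions in the 2 pairs. Its ratio to miR-542-3p was 0.0600 in Hep3B and 0.301 in Hep3B-C, a log2 change of 2.32 (1.86 to 2.81). The same ratio was 0.870 in Huh7 and 0.534 in Huh7-C, a log2 change of -0.70 (-0.96 to -0.45). Its ratio to miR-450b-5p changed by 0.86 (0.32 to 1.41) and -1.80 (-2.22 to -1.38), and that to miR-450a by 1.98 (1.005 to 2.95) and -0.82 (-1.64 to -0.01). Against miR-503, the nearest hairpin, it changed by 0.40 (-0.48 to 1.24) in Hep3B-C and by -1.01 (-1.49 to -0.54) in Huh7-C. Its ratio to miR-542-5p, which had 4 counts in all libraries but Huh7, changed by 1.81 (-0.67 to 4.28) and 1.91 (0.35 to 3.91). The ratio of miR-503 to miR-542-3p changed by 1.93 (1.21 to 2.68) and 0.31 (-0.15 to 0.77).

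Taken by position, miR-424 and miR-503 of the first block held 6.76% of the cluster counts in Hep3B and 21.3% in Hep3B-C, against 45.0% in Huh7 and 33.9% in Huh7-C. The log2 ratio of this block to the other block changed by 1.90 (1.51 to 2.31) in Hep3B-C and by -0.67 (-0.90 to -0.45) in Huh7-C. There were 10 ratios among the 5 members with at least 10 counts in every library. In each pair 7 of them changed with an interval that left out 0, and these 7 were not the same ratios in both. Of the ratios that changed in both pairs, 2 changed in the same direction (those of miR-450b-5p to miR-542-3p and to miR-450a). The other 3 changed in opposite directions (those of miR-424 to miR-542-3p, miR-450a and miR-450b-5p). The intervals were not adjusted for the number of ratios. The 5 members spanned 2.32 log2 units in Hep3B-C against Hep3B and 1.80 in Huh7-C against Huh7, and all 265 miRNAs with such counts spanned 10.9 and 10.6. The 5 are among the 265, so their span could not be the larger, and these spans do not show that the members moved together. The interquartile ranges were 1.58 and 0.31 for the 5 members and 1.34 and 1.40 for the 265.

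**Figure D4:**
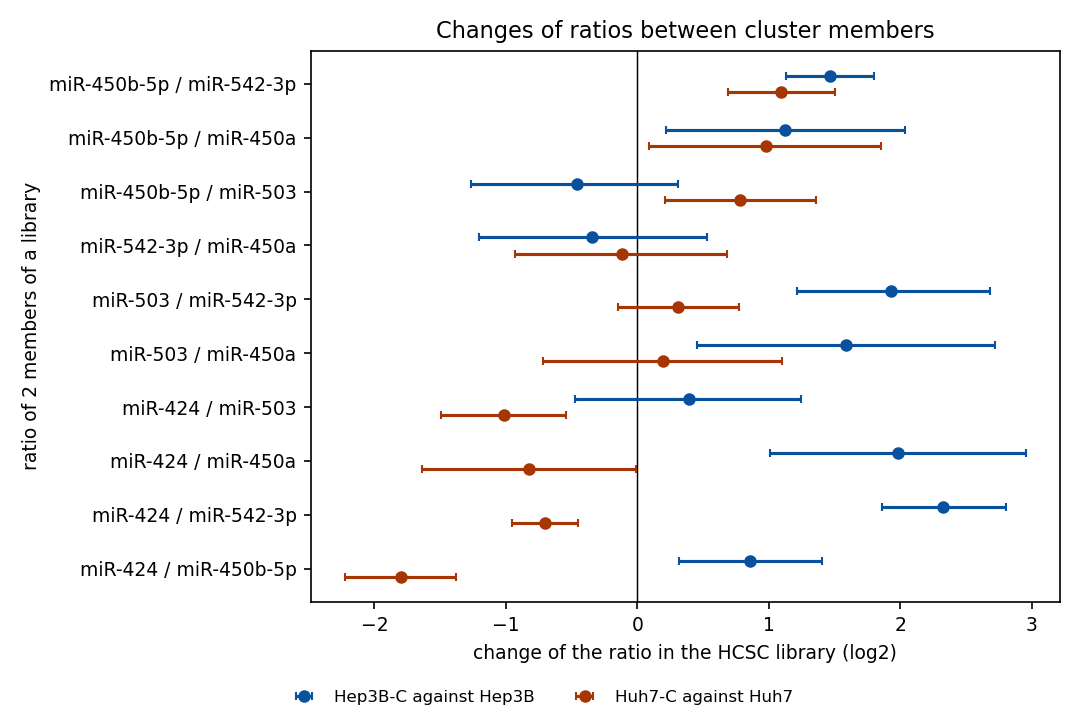
Log2 change of the 10 ratios among the 5 members with at least 10 counts in every library, in the Hep3B-C library against Hep3B and in the Huh7-C library against Huh7. Points are the changes and bars their 95% intervals from counting error. The ratios of miR-450b-5p to miR-542-3p and to miR-450a lie right of 0 in both pairs, and the last 3 ratios of miR-424 lie on opposite sides of 0.

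The lines themselves differed most in miR-424. In Huh7 against Hep3B, 3 of 6 members were called higher and 0 lower, beside 34.1% and 9.18% of 828 miRNAs. They were miR-424 (log2 fold-change 4.03, 3.63 to 4.46), miR-503 (2.45, 1.78 to 3.17) and miR-542-5p (3.24, 1.70 to 5.23). The last rests on 4 counts in Hep3B and 24 in Huh7. With total miRNA counts, TMM and DESeq2 sizes it was 0.86, 1.78 and 1.80 and was not called. In Huh7-C against Hep3B-C, 2 of 6 were called higher and 0 lower, beside 14.4% and 23% of 868, and they were miR-424 (1.41, 1.16 to 1.67) and miR-503 (1.24, 0.78 to 1.71). These comparisons share libraries with the HCSC pairs and add no independent sample. MiR-424 was called higher in the Huh7 libraries under all 4 library sizes, while with total miRNA counts the difference of miR-503 between the HCC lines was 0.07. Free of the library size, the ratio of miR-424 to miR-542-3p was 14.5-fold higher in Huh7 than in Hep3B (log2 3.86, 3.43 to 4.31) and 1.78-fold higher in Huh7-C than in Hep3B-C (log2 0.83, 0.53 to 1.14).

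The 2 strands of a hairpin were compared next, since both come from the same precursor. The minor strand miR-542-5p made up 0.435% of the counts of its hairpin in Hep3B (0.119 to 1.11%) and 0.619% in Hep3B-C (0.169 to 1.58%), against 3.53% in Huh7 (2.28 to 5.21%) and 0.595% in Huh7-C (0.162 to 1.52%). Huh7 was the only library whose interval lay apart from the others. The strand ratio changed in Huh7-C against Huh7 (log2 odds ratio -2.47, adjusted p = 7.12e-04, Fisher's exact test), and in the Hep3B pair it was not called (0.51, adjusted p = 0.978, Fisher's exact test). The strand miR-424*, which is not among the members, made up 9.84%, 6.31%, 10.8% and 12.1% of the counts of its hairpin (6, 13, 69 and 49 counts), with no call in either pair. Over the same rule, 14.1% of 135 hairpins were called in the Hep3B pair and 18.7% of 123 for the Huh7 cells, beside 0 of 2 and 1 of 2 hairpins of the cluster. MiR-450b-3p was at 0 beside 90 to 277 counts of miR-450b-5p, and the upper end of the exact binomial interval of its share was 1.32% in Hep3B-C and 4.02% in Huh7.

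The seed of miR-424 is carried as well by miR-16 and miR-15a, which had more counts than miR-424 in every library. It is also carried by miR-15b, which had more in the Hep3B and Hep3B-C libraries only. MiR-16 had 1422 counts in Hep3B and 8258 in Hep3B-C, against 3430 in Huh7 and 2718 in Huh7-C. MiR-15a had 285, 868, 1714 and 992 counts, and miR-15b had 403, 2506, 284 and 354. Together with miR-195 and miR-497, these and the 2 members formed a pool in which miR-424 held 2.45% of the counts in Hep3B (1.85 to 3.18%) and 1.59% in Hep3B-C (1.38 to 1.83%), against 9.29% in Huh7 (8.57 to 10.04%) and 7.84% in Huh7-C (7.07 to 8.66%). MiR-503 held 1.07%, 0.528%, 1.35% and 2.31%. In Hep3B-C against Hep3B, the share of miR-424 was thus higher within its own cluster and lower within this pool. Of 5 relatives tested in the Hep3B pair, 4 were called higher and 0 lower, beside 34.1% and 2.52% of all 834 miRNAs. Their median log2 fold-change was 2.38, beside 1.54 over all miRNAs tested. In the Huh7 pair 0 were called higher and 1 lower (miR-195), beside 3.11% and 17.1% of 772 miRNAs, with a median of -0.66 beside -0.65. These calls and medians are on the scale of total reads and shift with the library size. MiR-646, also on the list of relatives, had no counts in the HCSC or HCC libraries.

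Set beside 2 other clusters of the X chromosome, the summed counts changed as follows. The neighbouring Xq26 cluster of miR-106a, miR-18b, miR-20b and miR-363 held 104, 164, 275 and 254 counts, and the Xp11 cluster of 12 miRNAs around miR-532, miR-500a and miR-660 held 981, 1516, 2438 and 2275. The Xq26 sum does not stand for each of its miRNAs. In Huh7 against Hep3B the log2 fold-change was -0.73 for miR-106a, against 3.98 for miR-18b, 7.44 for miR-20b and 5.22 for miR-363. The miR-424 to miR-450b cluster fell against both in the Hep3B pair, by log2 changes of -0.61 (-1.002 to -0.23) against the Xq26 cluster and -0.59 (-0.75 to -0.42) against the Xp11 cluster. In the Huh7 pair the changes were 0.02 (-0.25 to 0.30) and 0.01 (-0.13 to 0.14). Out of 260 miRNAs that reached 10 counts in every library, the 5 whose profile over the 4 libraries was nearest to that of the summed cluster were miR-24, miR-769-5p, miR-148b*, miR-598 and miR-30d*. The distance (Euclidean, on centred log2 counts) was 0.126 for miR-24 and 0.138 for miR-769-5p, beside a median of 1.93 for all of them. The members themselves lay at 0.226 (miR-450a), 0.608 (miR-542-3p), 1.35 (miR-450b-5p), 1.41 (miR-503) and 2.29 (miR-424), so 1 member was farther from the sum than the median miRNA. These distances rest on 4 libraries and are a description.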

How the data were processed

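Small RNA libraries of Hep3B, Hep3B-C, Huh7 and Huh7-C were compared, with 1 library per condition. Contaminant reads, redundant reads and those under 18 nt had been removed by the authors, who mapped the rest with SOAP to NCBI Build 36.1, set aside other small RNA classes and matched the remainder to miRBase release 17. The authors deposited raw counts per miRNA, without normalization. TPM was computed from these counts and the total reads stated in the study. Members and lists were chosen with earlier results of these data known, and all 7 members are reported. The other miRNAs named are the opposite strand of the miR-424 hairpin, miRNAs related by seed (with values for those at 1000 counts or more), 2 other X-chromosome clusters and the 5 nearest profiles.

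Pairs of libraries were compared by a 2-sided exact Poisson test, that of Audic and Claverie, chosen here because the study names a method based on the Poisson distribution, for miRNAs with at least 1 count in the pair, with Benjamini-Hochberg adjustment over all of them. A miRNA was called where its log2 fold-change was 1 or more in size and its adjusted p did not exceed 0.01, with a TPM of 0 set to 0.001. Intervals (95%) of fold-changes are exact binomial intervals of the counts given their sum. Those of ratio changes are exact conditional intervals of the odds ratio, and those of shares are Clopper-Pearson intervals. Strand ratios were tested by Fisher's exact test on hairpins with at least 10 counts. A joint fit of both lines used the quasi-likelihood test of edgeR with the parent line as a block, an adjusted p of 0.05 and miRNAs that reached 10 counts in 2 or more libraries. The alternatives were total miRNA counts, TMM or DESeq2 size factors, the exact test of edgeR with the biological coefficient of variation set to 0.2 or 0.4, an exact binomial test, other filters and thresholds, and leaving out each library. Python 3.11.15, scipy 1.17.1, R 4.3.3, edgeR 4.0.16 and DESeq2 1.42.0 were used. The exact Poisson test, the strand test and the joint edgeR fit were run on simulated counts, and the other tests were not. The counts simulated for the Poisson test held counting error only. Those for the joint fit varied less than the data, whose fitted common coefficient of variation was 0.546. These checks therefore do not show how the 2 tests perform at the spread of these data. Total miRNA counts were 1739278 to 5741567 per library. Since TPM is per total reads, 1 count equalled 0.0596 to 0.0941 TPM.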

Additional observations from a re-analysis of the deposited data

Results flagged for a closer look

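Several values moved in opposite directions in Hep3B-C against Hep3B and in Huh7-C against Huh7. With 1 library per condition, the difference between the pairs was not tested. The values given are the log2 change in the Hep3B pair minus that in the Huh7 pair.

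MiR-424 differed by 2.62, and its ratios to miR-542-3p, miR-450a and miR-450b-5p by 3.03, 2.80 and 2.66. The ratio of miR-424 and miR-503 together to the miR-542 and miR-450 members differed by 2.58. For these 4 ratios the counting intervals left out 0 on opposite sides, and the ratios do not depend on the library size. MiR-542-5p differed by 2.72, which rests on 4, 4, 24 and 4 counts. Its opposite directions held with total reads only. Under total miRNA counts, TMM and DESeq2 sizes miR-542-5p fell in both pairs. The log2 values were then -1.64, -1.29 and -1.06 for the Hep3B pair, and -2.08, -2.28 and -2.02 for the Huh7 pair. MiR-424 kept its directions under these sizes, but total miRNA counts left only 0.17 (Hep3B pair) and -0.17 (Huh7 pair). MiR-542-3p differed by -0.41, miR-450a by -0.18 and the summed cluster by 0.27, and each of these had an interval that included 0 in at least 1 pair.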

How the results depend on the processing

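Fold-changes of the cluster moved mainly with the library size. In Hep3B-C against Hep3B the change of the sum reversed from 0.16 to -1.60, -1.25 and -1.02 with total miRNA counts, TMM and DESeq2 sizes, and to -0.020 without miR-424. In Huh7-C against Huh7 it moved from -0.10 to 0.41, 0.21 and 0.47, and to 0.18 without miR-424. In Huh7 against Hep3B it reversed from 0.97 to -1.41, -0.49 and -0.48 and was 0.32 without miR-424. In Huh7-C against Hep3B-C it was 0.97 and 1.010 with TMM and DESeq2 sizes and 0.52 without miR-424, against 0.70.

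With those 3 sizes, 0 members in place of 3 were called higher in Hep3B-C and 2 in place of 0 lower. In Huh7-C, 0 in place of 1 was called lower with DESeq2 sizes, beside 9.2% in place of 17.1% of all 772 miRNAs. In Huh7 against Hep3B, 1 in place of 3 was called higher with total miRNA counts and with TMM, and 3, 2 and 2 in place of 0 lower with the 3 sizes. Among all 828 miRNAs, 10.1% and 15.6% were called higher there, and 30.1%, 19.6% and 19.6% lower. With an assumed coefficient of variation of 0.2 and 0.4, the members called higher were 1 and 0 in Hep3B-C, 0 and 0 in Huh7-C (0 lower), and 1 and 0 in place of 2 in Huh7-C against Hep3B-C. With 0.4, 1 was called higher in Huh7 against Hep3B. The shares of all miRNAs called higher with 0.2 and 0.4 were 23.5% and 3% in Hep3B-C, 1.94% and 0.648% in Huh7-C, and 9.79% and 3.57% in Huh7-C against Hep3B-C, and with 0.4 it was 13.2% in Huh7 against Hep3B. Those called lower in Huh7-C with 0.2 and 0.4 were 8.94% and 1.3%. A pseudocount of 1 TPM left 2 in place of 3 members called higher in Hep3B-C, without miR-450b-5p, beside 26.4% of all 834 miRNAs.

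Single members reversed as well. In Hep3B-C, miR-450b-5p was -0.69, -0.34 and -0.11 with total miRNA counts, TMM and DESeq2 sizes, miR-542-5p was -1.64, -1.29 and -1.06 in place of 0.12, and miR-503 was -0.23 with total miRNA counts. In Huh7 against Hep3B, miR-542-3p was -2.21, -1.29 and -1.27 with the 3 sizes, and miR-450a was -1.67, -0.75 and -0.73. In Huh7-C against Hep3B-C, miR-450b-5p was -0.074 with total miRNA counts in place of 0.028. Of all values of single members under the 3 sizes, 36 kept direction and side of the threshold and 14 reversed. With the direction kept, 11 lost a call and 11 gained a call. Some of those that reversed also lost or gained a call.

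Strand calls were the same under each of 6 alternatives, which were the same settings applied to each pair. They changed the minimum count of a hairpin or loosened the adjusted p. Both tested hairpins had more than 50 counts in every library, so no count minimum removed them, and this says little about stability. In the fit of both lines 0 members were called under each of 9 alternatives. These included the fit without the line as a replicate block and those without 1 library. Since 8 of the 9 called 0 of all miRNAs, this count says nothing about stability. The fits without 1 library also left out the block of the parent line. In them, the lone library of a line or state was assumed to vary like the others. Counting error limited miR-542-5p and miR-450a, with at most 24 and 31 counts per library, and the spread between cultures was not measured.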
